A study of Mus musculus with 4 samples.

Results

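The insulin-like growth factor (IGF) family was followed in prostate spheres grown with or without the γ-secretase inhibitor DAPT. It comprised 10 genes, namely the ligands Igf1 and Igf2, the receptors Igf1r and Igf2r, and the 6 binding protein genes Igfbp2 to Igfbp7. Each gene was read through every array probe whose transcript accession belongs to it, which gave 15 of the 41174 probes. Of these, 14 passed the filter on dim probes, against 27290 probes in all, and each of the 10 genes had at least 1 of them, against 21468 genes tested. The Igf2 probe that passed did so only through the DAPT arrays, so its filter favoured a difference. The family was chosen by the measured log2 ratios of DAPT against vehicle, Igfbp3 having the largest rise of any gene tested on the arrays. For the members, the difference between DAPT and vehicle is therefore given as a description and not as a test.

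Basal cells were isolated by FACS from the prostates of adult FVB mice and grown as spheres, which are clusters formed in culture. The control spheres received the vehicle DMSO and the treated spheres received DAPT at 5 µM, and the medium of both was renewed every 24 h. Each group had 2 arrays. Every array carried sphere RNA in the red dye and Universal Mouse Reference RNA, a commercial mixture, in the green dye, so each value is a log2 ratio of sphere over reference. The labels do not state if replicate arrays stem from separate mice or separate cultures. The p-values of other genes thus measure no more than the spread of these 4 samples, and that spread could be technical. DAPT blocks γ-secretase as a whole, an enzyme that cuts Notch and other membrane proteins.

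IGF1 and IGF2 are secreted growth factors that signal through the IGF1 receptor, a tyrosine kinase, to the PI3K, AKT and mTOR pathway. The IGF2 receptor, which is also the cation-independent mannose 6-phosphate receptor, takes IGF2 up for breakdown and carries lysosomal enzymes. IGF-binding proteins hold the ligands outside the cell, where they limit or prolong their action, and proteases release them. In the prostate IGF1 is known mainly as a product of the stroma that acts on the epithelium.

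The size of the difference between the DAPT and vehicle groups varied among the members. Igfbp3 was much higher with DAPT, by 3.18 on the log2 scale, which is 9.09-fold. Igf1, Igf2r and Igfbp7 were lower, by 1.97-fold, 1.98-fold and 1.71-fold. The 3 Igf1r probes and the probes of Igfbp2, Igfbp4 and Igfbp6 differed less. The 2 probes of Igfbp5 moved in opposite directions, by 0.62 and -0.80 on the log2 scale.

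The promoters of the 4 genes with these differences are shown because γ-secretase frees the intracellular part of Notch, which acts on DNA through its partner RBPJ. Each is the 250 bases before the annotated start, from RefSeq (GRCm38.p6), read 5′ to 3′ on the strand of the gene. The Igfbp3 window is chr11:7213924-7214173 on the minus strand, the Igf1 window is chr10:87860861-87861110 on the plus strand, the Igf2r window is chr17:12769707-12769956 on the minus strand and the Igfbp7 window is chr5:77408046-77408295 on the minus strand. Capitals mark matches to any of 5 motifs searched on both strands.
Igfbp3: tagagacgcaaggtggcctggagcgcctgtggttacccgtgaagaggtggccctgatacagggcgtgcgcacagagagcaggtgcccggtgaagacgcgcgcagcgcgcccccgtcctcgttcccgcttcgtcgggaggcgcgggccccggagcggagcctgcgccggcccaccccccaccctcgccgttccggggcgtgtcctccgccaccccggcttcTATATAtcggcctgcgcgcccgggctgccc
Igf1: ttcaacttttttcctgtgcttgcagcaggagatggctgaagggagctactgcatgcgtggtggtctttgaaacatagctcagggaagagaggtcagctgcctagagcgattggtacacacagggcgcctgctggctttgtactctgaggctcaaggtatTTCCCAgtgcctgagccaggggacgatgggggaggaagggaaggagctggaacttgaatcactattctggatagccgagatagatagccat
Igf2r: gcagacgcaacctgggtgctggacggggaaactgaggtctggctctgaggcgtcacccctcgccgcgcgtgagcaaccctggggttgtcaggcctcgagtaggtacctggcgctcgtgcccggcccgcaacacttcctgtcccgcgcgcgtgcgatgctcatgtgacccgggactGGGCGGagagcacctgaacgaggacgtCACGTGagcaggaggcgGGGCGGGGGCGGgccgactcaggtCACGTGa
Igfbp7: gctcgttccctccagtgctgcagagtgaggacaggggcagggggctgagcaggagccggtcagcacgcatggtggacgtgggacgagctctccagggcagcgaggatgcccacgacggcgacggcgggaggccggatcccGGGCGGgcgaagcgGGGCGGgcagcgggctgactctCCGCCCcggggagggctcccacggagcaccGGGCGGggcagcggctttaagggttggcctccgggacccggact

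The motifs were the RBPJ core TGGGAA, the E-box CACGTG, the TATA box TATAAA, the TA repeat TATATA and the GC box GGGCGG, and matches of different motifs were counted separately even where they overlap. The Igf1 window holds 1 RBPJ core, written on the printed strand as TTCCCA, and no other motif. The Igfbp3 window holds 1 TA repeat only, the Igf2r window holds 2 E-boxes and 3 GC boxes, and the Igfbp7 window holds 4 GC boxes. The RBPJ core is present in 21.6% of the 32851 mouse promoter windows of this length and in 3 of the 14 windows of the 10 members. The E-box is present in 6.02% of all windows and 2 of 14, the TATA box in 12.4% and 2, the TA repeat in 5.25% and 1, and the GC box in 32.7% and 6. These matches describe letters only, and no binding was measured.

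The sphere channel was dim, with a median red signal of 1.82 to 2.85 times local background across the 4 arrays. The share of probe spots called well above background in this channel was 63.7% to 69.5%. The scanner software marked 11.5% and 29.2% of the probe spots on the vehicle arrays as non-uniform or outlying, and 49.6% and 50.9% on the DAPT arrays. Log ratios of all probes correlated at 0.921 between the vehicle arrays and 0.943 between the DAPT arrays, and at 0.838 to 0.878 across groups. The markers did not single out the basal type. All basal markers but Dst had mean log2 ratios above 0 in both groups, among them Krt5 (log2 ratios of 4.67 and 4.63 with vehicle, 4.67 and 5.17 with DAPT) and Krt14 (4.52 and 3.88, 4.32 and 4.17), while Dst was at -0.01 and -0.06 with vehicle and -0.14 and -0.45 with DAPT. The mean of the 8 basal markers was 3.20 and 2.88 with vehicle and 3.20 and 3.04 with DAPT, and that of the 6 luminal markers tested was 3.58 and 3.47, and 3.17 and 3.15. Luminal genes above the reference included Krt19 (5.67 and 5.65 with vehicle, 4.47 and 4.61 with DAPT), Tmprss2 (4.01 and 3.74, 3.44 and 3.39) and Cd24a (3.93 and 4.30, 3.79 and 3.84), whereas Pbsn was not well above background. The threshold used throughout was an adjusted p of 0.05 in limma over all genes, at which 4% of all genes were lower. Krt15 was the 1 of 8 basal markers that was lower with DAPT, and of 6 luminal markers tested, Krt19 was lower. The Krt15 difference of -1.08 was -3.50 in normalized red and -2.42 in the normalized green reference, so both channels fell. That of Krt19 was -1.48 in red and -0.36 in green. None of the 3 endothelial markers tested and none of the 5 leukocyte markers tested passed the threshold in limma (no gene of either list had an unadjusted p under 0.05, and the lowest adjusted p was 0.221).

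At this threshold, 1 of the 10 members was higher with DAPT and 3 were lower. Across all genes, 6.81% passed, 2.82% as higher and 4% as lower. Nothing is read from this comparison because the members were chosen with these values known. The median difference of the 10 members was -0.44, against -0.06 for all genes. With each array centred on its median in place of loess, a smoothing fit that corrects the ratio by brightness, the median of all genes was 0.11 and 69.7% of the called genes were higher, against 41.4% in the main analysis, and scaling between arrays gave 27.1%. The log2 ratios of the groups did not overlap for 8 of the 14 member probes that were kept, near the 54.3% found over all probes kept.

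**Figure D1:**
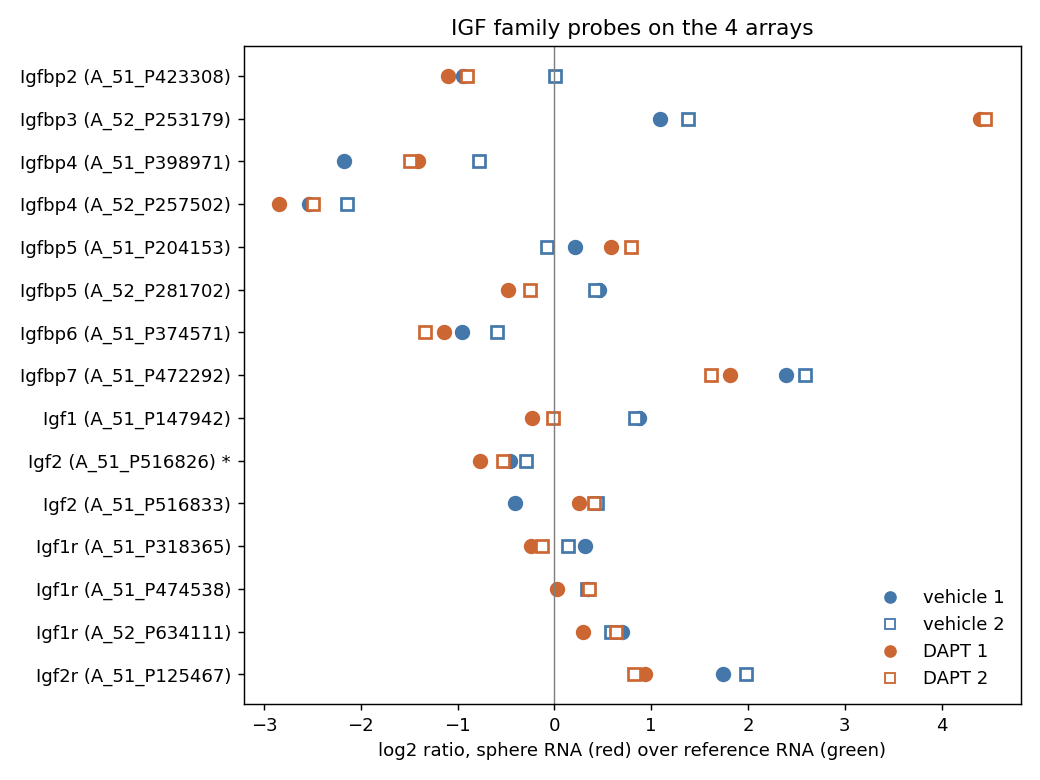
Log2 ratio of sphere RNA (red) over reference RNA (green) for each of the 15 IGF family probes on the 4 arrays, with circles for replicate 1 and squares for replicate 2, blue for vehicle and orange for DAPT. The asterisk marks the Igf2 probe that was not kept. Igfbp3 lies at 4.39 and 4.45 on the DAPT arrays and at 1.09 and 1.38 on the vehicle arrays.

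Fibroblast markers moved with the treatment, and this is stated beside the ligands because the stroma is a known source of Igf1. Of 10 fibroblast markers, 7 were lower with DAPT (Col1a1, Col1a2, Col3a1, Dcn, Postn, Mgp and Thy1) and 3 did not pass (Lum, Pdgfra and Fbln1). Across all genes, 4% were lower at the adjusted threshold. The mean log2 ratio of the 10 fibroblast markers was -0.15 and 0.20 on the vehicle arrays and -1.34 and -1.22 on the DAPT arrays. All 10 were well above background in at least 1 group. In the red channel without the reference 0 of the 10 passed, and with spots of high local background kept 3 did. Dcn, the collagen-binding proteoglycan decorin, was at -0.07 and 0.53 with vehicle and at -1.70 and -1.55 with DAPT. Its difference was -1.86 in normalized red and -0.01 in the normalized green reference. The 7 lower markers all fell in red, from -0.60 (Thy1) to -2.74 (Mgp). The reference was higher with DAPT for Col1a1, Col1a2, Col3a1, Postn and Thy1, by 0.18 to 0.66, and lower for Mgp (-0.30). Pdgfra, which did not pass, was higher in red by 0.61, as was Fbln1 by 0.11, while Lum was at -0.48. In bulk RNA, fewer cells of a type and less RNA per cell cannot be told apart. Of 7 smooth muscle markers, Myh11, a smooth muscle myosin, was lower with DAPT, with a difference of -1.16 and a limma adjusted p of 0.00884. The Myh11 difference was -0.54 in normalized red and 0.62 in the normalized green reference. At an unadjusted limma p under 0.05, 3 of the 7 were lower, against 2828 of the 21468 genes tested. The mean log2 ratio of the 7 was 0.52 and 0.72 with vehicle and 0.30 and 0.33 with DAPT. The part of both marker lists in the differences of Igf1, Igf2r, Igfbp7 and the other members was not tested.

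Igf1, the growth factor, was lower with DAPT. Its probe was printed in 10 spots, and their mean log2 ratio was 0.88 and 0.83 in the vehicle replicates and -0.23 and -0.02 in the DAPT replicates. Both DAPT arrays lie below both vehicle arrays. The group mean was 0.85 ± 0.03 (SD, n = 2) for vehicle, -0.13 ± 0.15 (SD, n = 2) for DAPT, a difference of -0.98 with a standard error of 0.20.

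Single spots of this probe show the scatter within an array. The spot SD was 0.15 and 0.25 on the vehicle arrays and 0.27 and 0.25 on the DAPT arrays. The 20 vehicle spots ranged from 0.38 to 1.18 and the 20 DAPT spots from -0.62 to 0.33, so they did not overlap. Spots of an array share 1 RNA sample and are no replicates of the treatment. The sphere signal was weak, at 223 and 134 intensity units in red with vehicle and 130 and 113 with DAPT, over a local background of 57.3 to 60.9. The scanner software marked 1 and 0 of the 10 spots on the vehicle arrays, and 9 and 8 on the DAPT arrays. With the marked spots left out, Igf1 differed by -1.04. Over 12 alternatives the difference ran from -1.89 to -0.95.

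**Figure D2:**
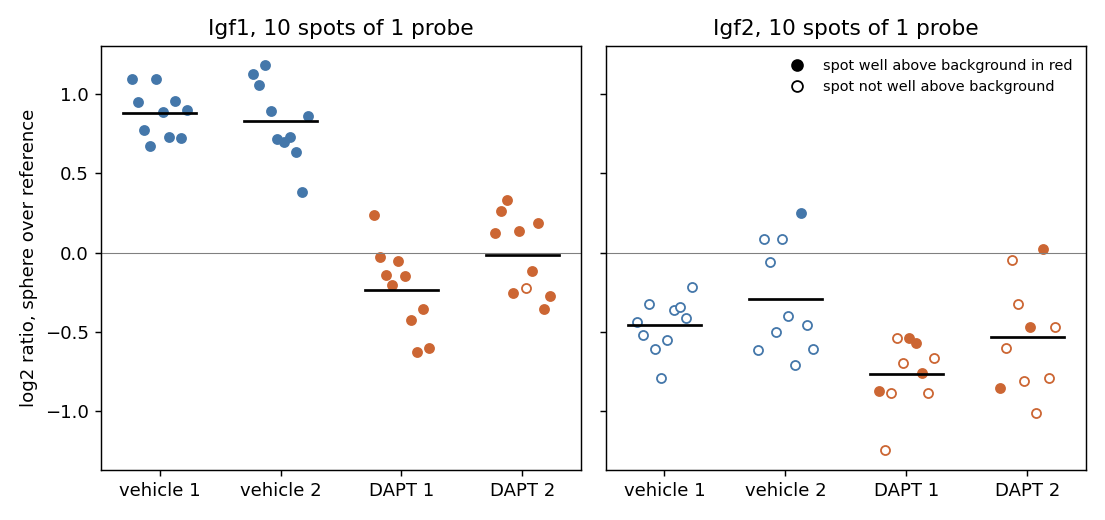
Log2 ratio of each of the 10 spots of the Igf1 probe (left) and of the 10-spot Igf2 probe (right) on the 4 arrays, with bars at the mean of the spots. Filled points are spots well above background in red. The Igf1 spots of the groups do not overlap, whereas most Igf2 spots are open.

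Igf2, the fetal growth factor imprinted in mouse, was near or below the detection level. Its single-spot probe A_51_P516833 had raw red signals of 62 and 79 on the vehicle arrays and 103.5 and 93 on the DAPT arrays. It was not well above background on either vehicle array and was on both DAPT arrays. Its log2 ratios were -0.41 and 0.44 with vehicle and 0.25 and 0.40 with DAPT, which overlap, and the difference was 0.32 with a standard error of 0.26. In the red channel after loess and Aquantile normalization the means were 6.39 and 6.97 on the log2 scale, and no fold is given, since the vehicle value is only a bound. The sign of this difference turned with median centring, to -0.37.

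The second Igf2 probe, A_51_P516826, was printed in 10 spots and was not kept. It gave -0.46 and -0.29 with vehicle and -0.77 and -0.53 with DAPT. Of its 20 vehicle spots 1 was well above background in red, and of its 20 DAPT spots 7 were. These arrays give no direction for Igf2.

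Igf2r, the receptor that clears IGF2, was lower with DAPT. Its log2 ratios were 1.74 and 1.97 with vehicle and 0.93 and 0.82 with DAPT, and the groups do not overlap. The means were 1.86 ± 0.16 (SD, n = 2) and 0.88 ± 0.08 (SD, n = 2), a difference of -0.98 with a standard error of 0.20.

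The probe was bright, at 17.2 to 27.3 times local background in red. The raw red signals of the groups overlapped, at 1664.5 and 1098 with vehicle against 1499 and 927 with DAPT, on DAPT arrays whose median red signal was higher (171 and 145, against 118.5 and 109). The size of the difference thus depended on how each array was normalized. It was -0.59 with median centring and -0.37 with the processed signals of the scanner software, both negative.

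Igf1r, the signalling receptor, was measured by 3 probes that all had a lower mean with DAPT. The probe A_51_P318365 gave 0.32 and 0.15 with vehicle and -0.24 and -0.13 with DAPT, a difference of -0.41 with a standard error of 0.20, and its groups do not overlap. The probe A_51_P474538 gave 0.34 and 0.34 against 0.03 and 0.35, a difference of -0.15. The probe A_52_P634111 gave 0.70 and 0.58 against 0.29 and 0.64, a difference of -0.17.

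On both of the latter probes DAPT 1 was the lowest array and DAPT 2 lay within or above the vehicle values. For A_51_P318365 the normalized red signal was higher with DAPT by 0.14 and the green reference signal by 0.55, so the lower ratio of this probe came with a higher reference signal. Its sign turned when red was used without the reference (0.14) and with the processed signals of the scanner software (0.12), and that of A_51_P474538 turned with median centring, to 0.03.

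Igfbp3, the main carrier of IGFs in blood and a secreted protein that also restrains growth in many epithelia, was the most changed member. Its raw red signal was 189 and 144 with vehicle and 1223 and 1247.5 with DAPT, over local backgrounds of 50.5 to 64. Both DAPT arrays were far above both vehicle arrays. Red stood at 3.02 and 2.85 times background with vehicle and at 19.1 and 22.5 times with DAPT.

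As log2 ratios, Igfbp3 was at 1.09 and 1.38 with vehicle and at 4.39 and 4.45 with DAPT. The means were 1.24 ± 0.21 (SD, n = 2) and 4.42 ± 0.04 (SD, n = 2), a difference of 3.18 with a standard error of 0.20. It ranked 1 among 13991 named genes ordered from the largest rise. The difference had parts from both channels, since normalized red was higher by 2.39 and the difference in normalized green was -0.80. In raw signal the green reference was at 229 and 140 on the vehicle arrays and at 151 and 135.5 on the DAPT arrays. Igfbp3 was measured by 1 probe in 1 spot, and that spot was marked by the scanner software on both DAPT arrays.

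Over the 11 alternatives that could be run the Igfbp3 difference ran from 2.39 to 3.38. The lowest came from the red channel without the reference and the highest from no background subtraction. Alternatives that changed only the filter, the fit of every probe or the replicate block could not move the difference and left it at 3.18. With spots of high local background kept it was 2.40. Igfbp1, its neighbour on mouse chromosome 11 with no annotated gene between them, had 1 probe that was not well above background in either group and was not tested.

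**Figure D3:**
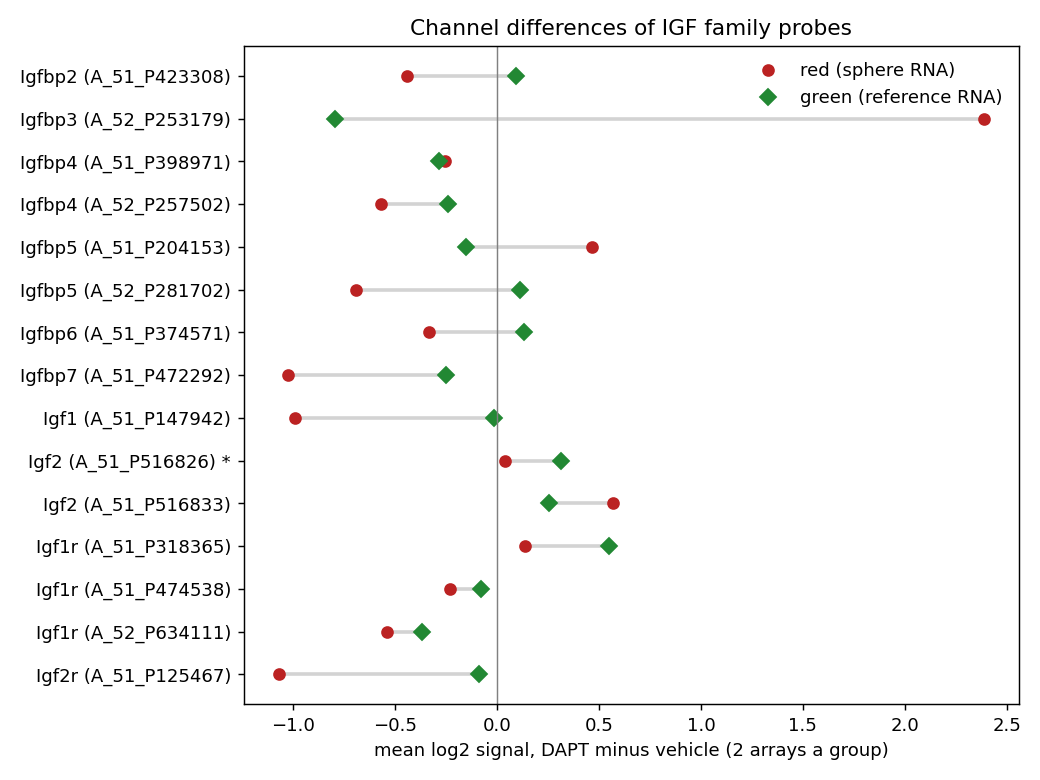
Mean log2 signal with DAPT minus vehicle for each IGF family probe, in the red channel (sphere RNA, circles) and the green channel (reference RNA, diamonds) after loess and Aquantile normalization, 2 arrays a group, with an asterisk at the Igf2 probe that was not kept. The distance from green to red is the difference of the log2 ratio, and for Igfbp3 it runs from -0.80 in green to 2.39 in red.

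Igfbp7, a secreted protein of basement membranes that binds IGFs only weakly, was lower with DAPT. Its red signal was strong, at 49.7 to 78.8 times background. Its log2 ratios were 2.39 and 2.59 with vehicle and 1.81 and 1.61 with DAPT, with no overlap. The means were 2.49 ± 0.14 (SD, n = 2) and 1.71 ± 0.14 (SD, n = 2), a difference of -0.78 with a standard error of 0.20.

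The raw red signals of Igfbp7 overlapped, at 4729 and 3474 with vehicle and 4117 and 3033 with DAPT. Over 11 alternatives the Igfbp7 difference ran from -1.25 with scaling between arrays to -0.32 with median centring. Those that changed only the filter, the fit of every probe or the replicate block could not move the difference. Without vehicle 2 or without DAPT 2 it was -0.67, and without vehicle 1 or without DAPT 1 it was -0.88.

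Igfbp5, a binding protein of the extracellular matrix, could not be given a direction. The probe A_51_P204153 had raw red signals of 139 and 122 with vehicle and 225 and 267 with DAPT. Its log2 ratios were 0.21 and -0.07 with vehicle and 0.58 and 0.79 with DAPT, a difference of 0.62 with a standard error of 0.20. Both DAPT arrays lie above both vehicle arrays on this probe.

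The probe A_52_P281702, which carries the same transcript accession, went the other way. Its raw red signals were 118 and 116 with vehicle and 96 and 107 with DAPT, only 1.6 to 2.19 times background. Its log2 ratios were 0.46 and 0.42 with vehicle and -0.48 and -0.25 with DAPT, a difference of -0.80 with a standard error of 0.20. The differences of the 2 Igfbp5 probes stood 1.42 apart. Which parts of the transcript they detect is not analysed here.

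**Figure D4:**
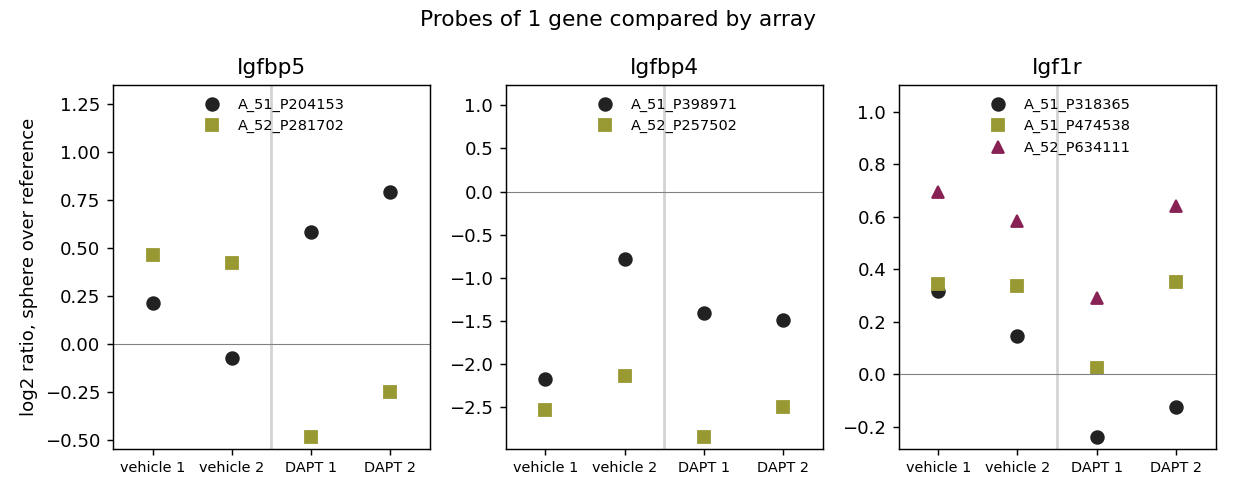
Log2 ratio of sphere over reference on each array for the members with over 1 kept probe, Igfbp5 (left), Igfbp4 (middle) and Igf1r (right), each with its own vertical scale and 1 symbol per probe. The Igfbp5 probes cross between the vehicle and DAPT arrays, from 0.46 and 0.42 to -0.48 and -0.25 for A_52_P281702.

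Igfbp2, the neighbour of Igfbp5 on mouse chromosome 1 and a binding protein often studied in prostate cancer, was at -0.95 and 0.01 with vehicle and at -1.10 and -0.90 with DAPT. Vehicle 2 stands apart, and vehicle 1 lies between the DAPT arrays. The difference was -0.54 with a standard error of 0.27. It was -1.01 without vehicle 1, and it was -0.06 without vehicle 2. With the processed signals of the scanner software it was 0.02.

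Igfbp4, an inhibitory binding protein cut by the protease PAPP-A, was below the reference on all 4 arrays. The probe A_51_P398971 was at -2.17 and -0.78 with vehicle and at -1.41 and -1.49 with DAPT, so the DAPT arrays lie between the vehicle arrays, and the difference was 0.03 with a standard error of 0.34. The probe A_52_P257502 was at -2.54 and -2.15 with vehicle and at -2.84 and -2.50 with DAPT, a difference of -0.33. Both turned sign under at least 1 alternative.

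Igfbp6, a binding protein that prefers IGF2, was at -0.95 and -0.59 with vehicle and at -1.14 and -1.33 with DAPT. The groups do not overlap, and the difference was -0.47 with a standard error of 0.21. It was -0.03 with median centring.

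Among the genes whose ratios over the 4 arrays lay nearest to those of Igfbp3, each gene centred on its own mean, were Prl2c5, Klra7, Prl2c3 and Bst1, at Euclidean distances of 0.36, 0.94, 0.95 and 0.96. Their differences were 3.00, 2.31, 2.27 and 2.55 on the log2 scale. Bst1 encodes an ectoenzyme related to CD38. Prl2c5 and Prl2c3 belong to a family of near-identical prolactin-related genes and Klra7 to a family of similar lectin-like receptors, so their probes may detect relatives. The genes nearest to Igf2r, the member with the most negative difference, were Slc43a2, Pi4ka, H2bc1, Amh and Glg1, at distances of 0.03 to 0.07 and with differences of -0.99 to -1.03. With 4 arrays in 2 groups, nearness means mainly a like difference between the groups.

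No gene of the pathway around the family passed the threshold. The list held 59 genes of ligands, carriers, proteases, receptors and signalling, of which 57 had a named probe and 51 were tested. In limma 0 of the 51 passed an adjusted p of 0.05 in either direction, against 6.81% of all genes. At an unadjusted p under 0.05, 6 were higher and 7 were lower, against 2144 and 2828 of the 21468 genes. The median difference was -0.03, against -0.06 for all genes, and the range was -0.65 to 0.70.

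Insulin-related ligands and IGF carriers had 5 genes tested, with a median difference of -0.11 and a range of -0.30 to 0.14. The 7 proteases of IGF-binding proteins and their inhibitors that were tested had a median of -0.01. Among them, Adam12, a metalloprotease reported to cut IGFBP3 and IGFBP5, was at 1.43 and 0.89 with vehicle and at 1.79 and 1.92 with DAPT, a difference of 0.70 with a limma adjusted p of 0.0803. These values are from the brighter of its 2 probes. The other Adam12 probe differed by 0.97 in the limma fit of every probe, with an adjusted p of 0.0306. Pappa, the protease that cuts IGFBP4, differed by 0.02, with vehicle arrays at 1.11 and 0.10. Adam12 and Pappa were singled out after their values were seen, as the extreme of the list and as the protease of a member.

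The insulin receptor Insr, which forms hybrids with IGF1R, was at -0.52 and -0.52 with vehicle and at -1.08 and -1.15 with DAPT. The difference was -0.59 with a standard error of 0.19 and a limma adjusted p of 0.0853, and it did not pass. The adaptor Irs1 had 1 probe that was not well above background in either group, and Irs2 is not analysed here. Among the 11 receptor relatives and adaptors tested, the median was -0.02. Gab1, an adaptor that recruits PI3K, had the lowest value of the list, at 1.53 and 1.47 with vehicle and 0.82 and 0.89 with DAPT, and was named after its value was seen. Its difference was -0.65 with a limma adjusted p of 0.0633, and it passed the threshold with no background subtraction (-0.69), with scaling between arrays (-0.91) and with the processed signals of the scanner software (-1.36).

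The 21 genes of PI3K, AKT and mTOR were all tested and had a median of -0.06 and a range of -0.55 to 0.62. The 7 tested genes of IGF mRNA-binding proteins and the mannose 6-phosphate route, through which Igf2r is also loaded, had a median of -0.03 and a range of -0.20 to 0.20. The count of 0 genes higher rose to 3 without DAPT 1 (Pik3cb, Ptpn1 and Rps6kb1) and to 1 without vehicle 1 (Adam12). The same count was 3 with median centring (Htra1, Akt2 and Eif4ebp1).

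**Figure D5:**
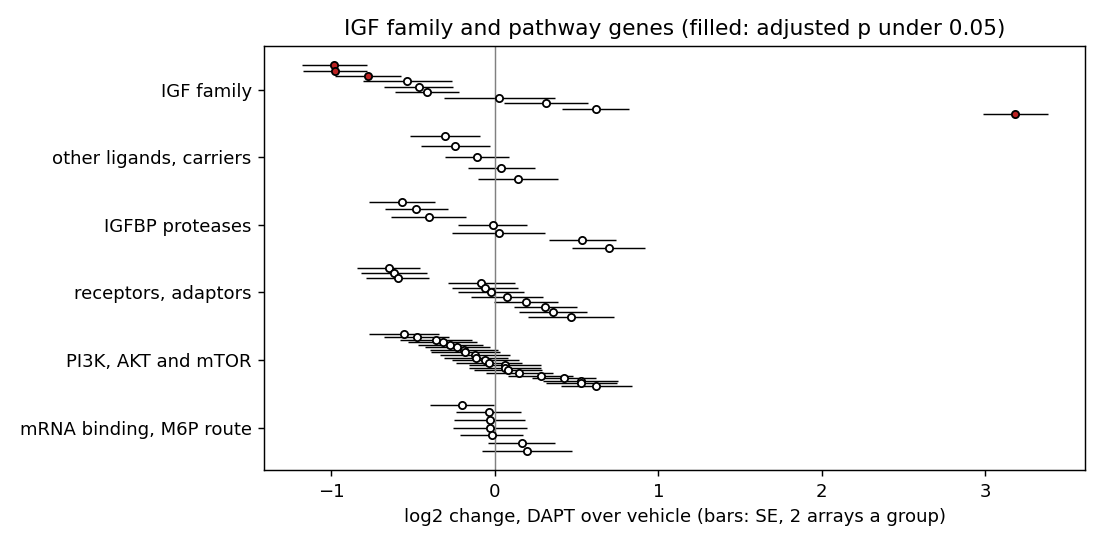
Log2 difference, DAPT over vehicle, for the 10 IGF family genes and the 51 pathway genes tested, by role, with bars for the standard error over 2 arrays a group and filled points for an adjusted p under 0.05. In the family 4 points are filled and Igfbp3 stands at 3.18, while the pathway genes lie between -0.65 and 0.70 with no point filled.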

How the data were processed

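The members and gene lists were chosen with earlier results of these data known. The titles of the samples gave groups and replicates. Agilent Feature Extraction 10.7.3.1 wrote each file, per the file headers, with median pixel intensity of spots and of their surroundings in both channels, and its own processed intensity. The deposited log10 ratios of the scanner files were used to settle how the authors' value table runs, which holds log2 values (correlation 0.869 to 0.902, column medians -0.015 to 0.00072, so sphere over reference, with the authors' normalization unstated). The authors' deposited marks for non-uniform, outlying and well-above-background spots were used as given.

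Background was corrected with limma's normexp (offset 50) and ratios with loess, control spots at weight 0. On DAPT 2, 13 spots whose local background exceeded 5 times that array's median were left out. No spot was saturated. Spots of a probe were averaged, and a probe was kept if at least 0.5 of its spots were called above background in the red channel of both replicates of a group. The brightest such probe represented a gene, with other probes taken from a fit on every probe. Of the 41174 probes, 24375 were named through RefSeq accessions (GRCm38.p6, names and neighbours only). Dyes were never swapped, so a constant dye effect drops out of the difference. Red and green signals after Aquantile normalization were also compared.

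Groups were compared with limma 3.58.1 (lmFit, eBayes, two-sided) in R 4.3.3, with 2 residual degrees of freedom, 10.5 more from eBayes, and Benjamini-Hochberg adjustment over all genes kept. Standard errors are limma's. The steps were tested on simulated data. The text names all members, pathway genes past the threshold, Insr, Irs1 and Irs2, and the 5 named genes nearest to Igfbp3 and to the lowest member, and says where another was chosen after its values were seen. Some genes that these rules or the marker lists name are not reported here. All arrays lay on 1 slide, so slide was not a block. Same-numbered arrays deviated together at a correlation of 0.0857, which cannot show if the numbers pair samples. The number of arrays limits the precision.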

Additional observations from a re-analysis of the deposited data

How the results depend on the processing

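Igfbp3, Igf1, Igf2r, Igfbp6, Igfbp7, both Igfbp5 probes and the Igf1r probe A_52_P634111 had the same sign under every alternative run. The Igfbp5 probes thus stayed opposite to each other. Alternatives that changed only the filter, the fit of every probe or the replicate block could not turn a sign. The authors' value table correlated at 0.9996 to 0.9998 with the ratios used here, so it was no independent check. At least 1 probe of Igf2, Igf1r, Igfbp2 and Igfbp4 turned sign under at least 1 alternative. With the processed signals of the scanner software, 283 genes were higher and 336 lower, 1 member was lower (Igf1, -1.89) and 1 pathway gene was lower. With median centring in place of loess, 1219 genes were higher and 531 lower, 1 member was lower (Igf1) and 3 pathway genes were higher. Scaling between arrays gave 367 genes higher, 2 pathway genes lower and an Igfbp3 difference of 2.57. With no background subtraction Igfbp3 differed by 3.38 and 1 pathway gene was lower, as 1 was with no filter on dim probes (Vtn), and 1 was higher with every probe on its own (Adam12). In the sample channel alone, limma called 0 genes higher and 2 lower, although 2627 genes had an unadjusted p under 0.05, with 0 members in either direction, 0 fibroblast markers and an Igfbp3 difference of 2.39. With spots of high local background kept, 4 genes were higher and 83 lower, with 0 members in either direction, 3 fibroblast markers lower and Igfbp3 at 2.40. Without marked spots only 2857 genes and 3 members could be tested, which gave 124 genes higher, 65 lower, 0 members higher, 1 lower (Igf1) and 0 fibroblast markers lower of 1 tested. The cause of each shift was not tested, and in the last setting the number of genes tested was also smaller. Leaving out 1 array at a time gave 0 to 3 pathway genes higher. The lone array left in a group is then assumed to vary like the other group.

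With the replicate number as a block, 873 genes were higher and 1184 lower, with Igfbp3 higher by 3.18 and 3 members lower (Igf1, Igf2r and Igfbp7), and no call of a member or pathway gene changed. The numbers are shared without a stated pairing, so this was not taken as a paired design. The fit with slide as a block was not run, since there is 1 slide. Members in 1 dim spot, such as Igf2 and the second Igfbp5 probe, are limited by signal over background.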
